A study of Mus musculus with 8 samples.

Results

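In epidermal progenitors of newborn mice, the control list held 4621 H2AK119ub peaks. Of these, 841 were narrow, lay away from protein-coding genes and met no peak of the Eed conditional knockout (cKO) list. They were chosen by 3 properties. The peak, measured as end minus start, was under 8000 bp. It shared 0 bp with every one of the 2541 peaks of the Eed cKO list. It overlapped neither the span of an mm10 RefSeq protein-coding gene nor 2 kb on either side of it. Width, the overlap with the Eed cKO list and gene position therefore describe the selection and are no result. "Intergenic" below means outside protein-coding genes only, since non-coding genes were allowed.

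Both lists came from chromatin immunoprecipitation and sequencing of H2AK119ub in back-skin cells at postnatal day 0, sorted from the interfollicular epidermis as EpCAM(+), Sca1(+) and α6-integrin(high). The compared genotypes were Control and Eed-/-, the latter titled Eed cKO (conditional knockout), with 2 H2AK119ub libraries each and 1 deposited peak list per genotype. The labels used here name no Cre driver for the knockout and no alleles for the controls, and nothing in them says that the libraries came from separate animals. With 1 list per genotype there is no replicate error and no test was made. Intervals below are 95% intervals for counting error only (Wilson for shares, order statistics for medians), and peaks are not replicates. Read depth behind the lists is unknown, so a peak listed in control alone can go with less mark, fewer reads or another calling threshold in Eed cKO, and these cannot be told apart.

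H2AK119ub is a single ubiquitin on histone H2A, placed by Polycomb repressive complex 1 (PRC1) through its Ring1a or Ring1b subunit. Eed belongs to the core of another complex, PRC2, whose product is methylated lysine 27 of histone H3, a mark that canonical PRC1 binds. Variant PRC1, which holds Rybp or its relative Yaf2, reaches chromatin without that mark. Polycomb marks are best known at CpG-rich promoters of developmental regulators, and are also found over enhancers and intergenic sequence near those genes.

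MicroRNA genes lay under 3 of the peaks (0.357%), against 1 of the 308 narrow intergenic control peaks that met Eed cKO (0.325%). The peak at chr2:94238026-94242124 (4.10 kb) covered Mir129-2 and Mir129b, which are read from opposite strands of the same locus. It was 58.6 kb from the nearest protein-coding gene, Ttc17, inside the long non-coding RNA (lncRNA) gene Mir670hg, and 20.8 kb from the nearest Eed cKO peak. The peak at chr11:79709823-79715942 (6.12 kb) covered Mir193a and lay 11.8 kb from Rab11fip4 and 61.8 kb from an Eed cKO peak. The peak at chr3:17793284-17798776 (5.49 kb) covered Mir124a-2, a gene for the neuronal miR-124, and its whole width lay in the host gene Mir124-2hg, 149.7 kb from Cypt12. No mature sequence was found under the symbol Mir124a-2, so none is printed for it. The mature sequences of the others follow 5′ to 3′ from RefSeq (GRCm38.p6), with the seed (bases 2 to 8, which pair with targets) in capitals.
miR-129-5p: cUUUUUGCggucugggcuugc
miR-129-2-3p: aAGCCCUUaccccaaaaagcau
miR-129b-5p: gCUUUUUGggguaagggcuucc
miR-129b-3p: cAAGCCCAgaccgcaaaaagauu
miR-193a-5p: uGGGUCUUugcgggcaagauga
miR-193a-3p: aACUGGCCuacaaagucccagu
No seed was identical between these 6 products. The seeds of miR-129-5p and miR-129b-5p share a run of bases at offset positions, as do those of miR-129-2-3p and miR-129b-3p. The product miR-129-5p is also made from Mir129-1 on chromosome 6, where neither list had a peak.

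Start sites of lncRNA genes under the peaks were mostly poor in CpG. The promoter table (RefSeq, GRCm38.p6, 250 bases before to 50 after the start site) placed 59 start sites of 49 lncRNA genes under members. Over these genes the median number of CG dinucleotides, a motif that reads the same on both strands, was 5 per 300 bases (4 to 7), and 3 genes (6.12%, 2.10 to 16.5) had 15 or more. The 24 lncRNA genes with a start site under narrow intergenic peaks shared with Eed cKO had a median of 5.25 (3 to 9). The 5655 intergenic lncRNA genes under no control peak had a median of 3, and 2.76% of them had 15 or more. By contrast, the 402 protein-coding genes whose start sites lay under narrow control-only peaks at gene ends had a median of 19 (17.5 to 20), with 63.9% at 15 or more, against 47.4% of all protein-coding genes in the table. To show that range, 4 promoters are printed 5′ to 3′ on the strand of the gene, with every CG in capitals: 2310034G01Rik (chr19:46348939-46349238, minus strand, 46 CG), Lncpint (chr6:31218425-31218724, minus strand, 18 CG), Ftx (chrX:103623705-103624004, minus strand, 12 CG) and Lncenc1 (chr13:97434720-97435019, plus strand, 4 CG).
2310034G01Rik: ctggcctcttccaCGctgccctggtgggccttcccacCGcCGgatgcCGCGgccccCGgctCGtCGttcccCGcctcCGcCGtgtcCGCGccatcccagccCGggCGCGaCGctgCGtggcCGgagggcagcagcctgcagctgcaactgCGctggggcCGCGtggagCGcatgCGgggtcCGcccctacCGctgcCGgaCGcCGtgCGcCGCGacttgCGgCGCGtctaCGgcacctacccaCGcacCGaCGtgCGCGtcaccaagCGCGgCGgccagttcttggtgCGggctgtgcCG
Lncpint: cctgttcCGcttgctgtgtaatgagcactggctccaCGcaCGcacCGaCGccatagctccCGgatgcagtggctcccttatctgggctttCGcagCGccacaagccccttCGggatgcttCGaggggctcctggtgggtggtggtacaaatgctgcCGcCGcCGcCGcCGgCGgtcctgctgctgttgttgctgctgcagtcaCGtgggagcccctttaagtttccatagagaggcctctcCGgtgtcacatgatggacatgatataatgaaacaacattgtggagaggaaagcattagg
Ftx: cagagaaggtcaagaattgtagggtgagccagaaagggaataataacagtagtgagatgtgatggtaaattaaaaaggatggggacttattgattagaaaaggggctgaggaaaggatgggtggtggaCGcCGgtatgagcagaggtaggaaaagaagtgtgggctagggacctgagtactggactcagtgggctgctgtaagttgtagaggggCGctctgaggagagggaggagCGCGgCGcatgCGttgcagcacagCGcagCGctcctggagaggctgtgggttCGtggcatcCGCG
Lncenc1: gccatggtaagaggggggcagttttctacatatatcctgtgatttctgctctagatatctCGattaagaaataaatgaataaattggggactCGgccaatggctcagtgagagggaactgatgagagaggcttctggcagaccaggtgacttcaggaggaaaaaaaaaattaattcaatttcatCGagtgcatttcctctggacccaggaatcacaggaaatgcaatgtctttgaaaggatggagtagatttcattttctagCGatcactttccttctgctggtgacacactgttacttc
These 4 were picked after their CG counts were seen. Ftx lies in the X-inactivation centre, Lncpint is a p53-induced lncRNA, and Lncenc1 is a lncRNA described in naive embryonic stem cells. Their peaks were 3.84 kb wide at Ftx, 5.13 kb at Lncpint and 7.53 kb at Lncenc1, and the peak at 2310034G01Rik was 2.56 kb wide.

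In width the 841 peaks ranged from 543 to 7967 bp with a median of 2905 bp (2713 to 3047) and quartiles of 1892 and 4355 bp, and they covered 2.75 Mb in all. The 308 narrow intergenic control peaks that did meet Eed cKO had a median of 3261.5 bp (3024 to 3681), whose lower bound lies just below the members' upper bound. Control-only peaks made up 73.2% (70.6 to 75.7) of the 1149 narrow intergenic control peaks, 68.2% of narrow control peaks of any place and 62.1% of all control peaks. These percentages are set by the selection itself and are given as background. At narrow width the share was 62.6% (60.2 to 64.9) at gene ends and 72.0% (69.0 to 74.9) inside genes, where the median widths were 4249 and 3087 bp against 3000 bp outside genes.

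Within the intergenic peaks the control-only share was 78.4% (73.3 to 82.7) below 2000 bp, between 72.3% and 75.2% from 2000 to 6000 bp, and 56.7% (48.0 to 65.0) from 6000 to 8000 bp. Above the width limit it was 57.0% (50.1 to 63.7) for intergenic peaks, 41.2% inside genes and 31.3% at gene ends. Within each of the 6 width classes the interval outside genes overlapped both that inside genes and that at gene ends. From 6000 to 8000 bp the share was 63.7% (53.5 to 72.9) inside genes and 47.1% (42.2 to 52.1) at gene ends. These shares by width also come from the selection rule, under which a wider peak has more bases that can meet an Eed cKO peak. The reverse selection was smaller. Of 562 narrow intergenic Eed cKO peaks, 240 (42.7%, 38.7 to 46.8) met no control peak, so there were 3.50 members for each of them. This ratio also carries the unequal length of the lists. The control list had 4621 peaks against 2541, and 1149 narrow intergenic peaks against 562.

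**Figure D1:**
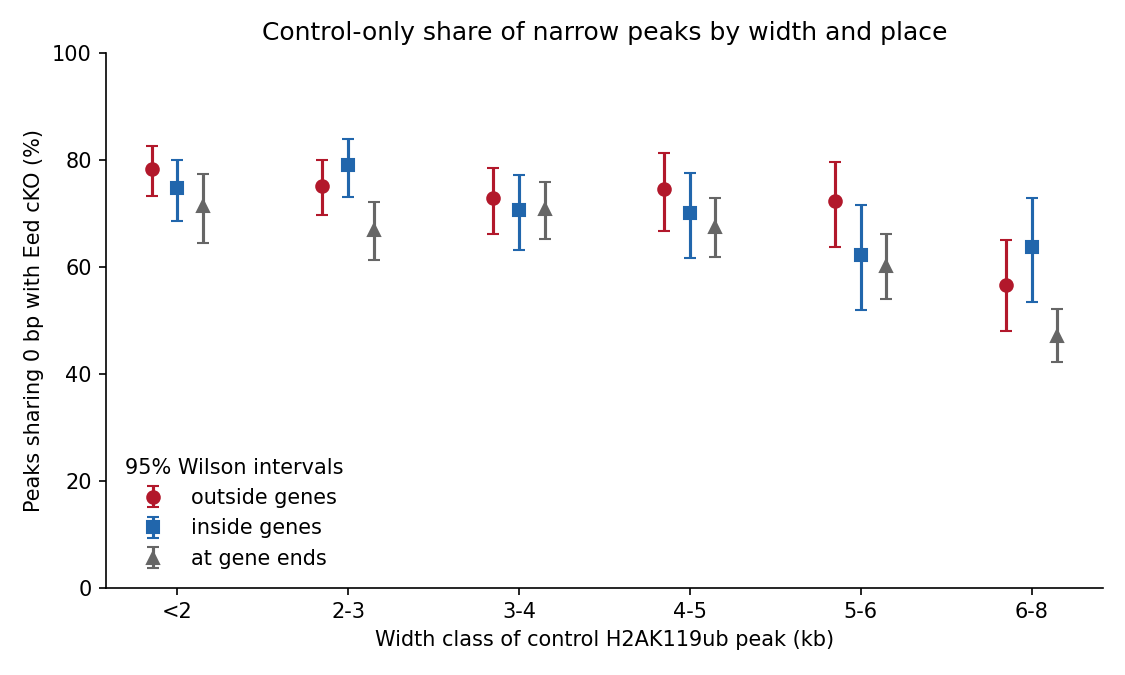
Share of narrow control H2AK119ub peaks that shared 0 bp with the Eed cKO list (y axis, percent) by width class in kb (x axis), for peaks outside genes, inside genes and at gene ends. Points are shares and bars 95% Wilson intervals. The share outside genes went from 78.4% below 2 kb to 56.7% at 6 to 8 kb. Wider peaks have more bases that can meet an Eed cKO peak.

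Each limit had peaks close on either side. The widest members were 7967 bp (72.1 kb from Septin9) and 7948 bp (Irx2), and the narrowest control-only intergenic peaks left out were 8024 bp (Mitf) and 8039 bp (Irf8). The members nearest to a gene lay 2005 bp from Acot1 and 2020 bp from Ubtf, while peaks at 1997 bp from Trp73 and 1941 bp from Blcap were left out. The members nearest to an Eed cKO peak lay 6 bp (near Pebp4) and 446 bp (near Nectin1) from it. The smallest overlaps left out were 29 bp (near Thap1) and 610 bp (near Fem1c). Only 8 members lay within 1 kb of an Eed cKO peak and 24 were 7000 bp or wider, so few members sat near the overlap or width limit.

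The nearest protein-coding gene was a median of 31.4 kb away (27.7 to 35.4), with quartiles of 11.7 and 84.9 kb and a maximum of 1324 kb. Within 10 kb of a gene lay 186 members (22.1%), and 183 (21.8%) were more than 100 kb from any gene. Peaks that met an Eed cKO peak had a median distance of 25.1 kb (20.9 to 31.4) and Eed cKO-only intergenic peaks 33.3 kb (26.4 to 42.1), so the intervals of all 3 sets overlapped. Relative to the intergenic sequence available (1504 Mb outside genes and their 2 kb margins), members were densest at 5 to 10 kb from a gene, with 1.08 peaks per Mb. The density was 0.950 per Mb at 10 to 20 kb, 0.920 at 20 to 50 kb, 0.699 at 50 to 100 kb, 0.452 at 100 to 200 kb and 0.276 at 200 to 500 kb. Beyond 500 kb, which held 15.3% of the available sequence, there were 6 members and 0.026 per Mb. These densities use the peak midpoint, so the 2 to 5 kb class (0.608 per Mb) is lowered by the rule that keeps the whole peak outside the margin.

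**Figure D2:**
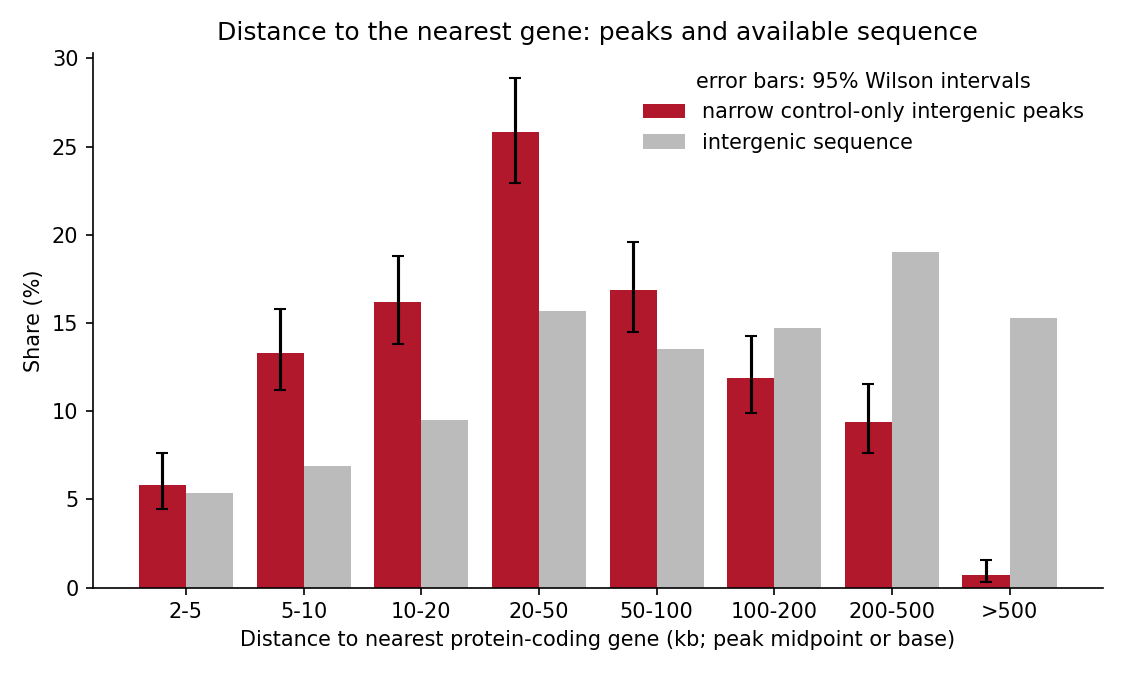
Share (y axis, percent) of the 841 peaks by midpoint (red, bars with 95% Wilson intervals) and of intergenic sequence (grey) in classes of distance to the nearest protein-coding gene in kb (x axis). The classes from 5 to 100 kb hold a larger share of peaks than of sequence (16.9% against 13.5% at 50 to 100 kb). At 2 to 5 kb the share of peaks is 5.83% (4.44 to 7.62), an interval that includes the 5.36% of sequence. The class beyond 500 kb holds 0.713% of peaks and 15.3% of sequence.

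Members did not lie mainly on the promoter side of their nearest gene. Strand was matched for 471 of the 634 nearest genes, covering 600 members, and the nearer gene end was the 5′ end for 316 of these (52.7%, 48.7 to 56.6). For peaks that met Eed cKO it was 108 of 238 (45.4%, 39.2 to 51.7).

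The nearest genes often carried H2AK119ub themselves. For 357 members (42.4%, 39.2 to 45.8) the nearest gene had another control peak in its span or within 2 kb, and for 251 (29.8%, 26.9 to 33.0) it had an Eed cKO peak. Genes with a control peak were 13.7% of all 21887 protein-coding genes and were the nearest gene for 18.4% of the intergenic sequence. For Eed cKO peaks these figures were 8.83% and 8.36%. The intergenic peaks that met Eed cKO lay next to such genes in similar shares, 45.1% (39.7 to 50.7) for control and 36.0% (30.9 to 41.5) for Eed cKO. Many members thus lay beside genes that were listed with H2AK119ub in Eed cKO too.

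Developmental regulators were frequent neighbours. Of 396 such genes (homeobox, Hox, other transcription factor families and signalling ligands), 76 were the nearest gene of 113 members (13.4%, 11.3 to 15.9), and they were nearest to 3.73% of the intergenic sequence. With genes of every RefSeq type counted, both in the selection and as nearest gene, the share was 5.15% (3.57 to 7.39) of 524 members. The share was 9.74% (6.91 to 13.6) for peaks that met Eed cKO and 7.92% (19 of 240) for Eed cKO-only peaks. The intervals of all 3 sets overlapped. The neighbouring regulator had its own control peak for 98 of the 113 members (86.7%) and an Eed cKO peak for 90 (79.6%), against 35.6% and 22.1% of the 728 other members. Over all 396 regulators, 74.7% had a control peak and 57.1% an Eed cKO peak. These lists were drawn up with earlier results of these data known, so their counts are descriptions.

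Homeobox genes outside the Hox clusters, which encode DNA-binding factors that pattern the embryo, were nearest to 63 members from 39 genes. The closest was a 1.72 kb peak 2.29 kb from Msx2, a factor of ectodermal organs and skull. Next were a 4.51 kb peak 5.00 kb from Zeb2, a repressor in neural crest, and a 1.55 kb peak 5.29 kb from Dlx4. Peaks near Nkx2-9 (6.13 kb), Irx6 (6.92 kb) and Onecut3 (7.40 kb) followed. The Irx6 peak lay 1.88 kb and the Onecut3 peak 1.31 kb from an Eed cKO peak, whereas the Zeb2 peak was 6192 kb from any. Msx2 had 3 members, 2 of them more than 50 kb from the gene, and no Eed cKO peak of its own. The Hox genes, which set position along the body, were nearest to 4 members. A 5.69 kb peak lay 23.5 kb from Hoxb13, and 3 peaks of 4.87, 5.56 and 3.77 kb lay 23.7 to 36.6 kb from the 3′ side of Hoxc4.

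Paired box, SRY box, forkhead, T-box, GATA and zic factors were nearest to 23 members from 16 genes. The closest were near Foxd4 (3.31 kb), Sox7 (7.09 kb), Gata2 (9.07 kb), Tbx21 (12.2 kb), Pax1 (13.0 kb) and Tbx4 (13.0 kb). Tbx4, a hindlimb and lung mesenchyme factor, had 3 members at 13.0, 38.7 and 61.3 kb. Basic helix-loop-helix factors had 10 members from 9 genes, the closest near Id1 (4.20 kb), Sim1 (8.14 kb), Neurog1 (11.7 kb), Twist1 (19.4 kb), Olig1 (38.8 kb) and Twist2 (40.8 kb). Secreted ligands had 13 members from 10 genes. The closest were near Fgf5 (2.74 kb), a regulator of hair length, Fgf15 (4.40 kb), Nodal (9.69 kb), Bmp4 (10.9 kb), Wnt11 (14.4 kb) and Wnt9a (14.5 kb). Of the 10 ligand genes, Nodal and Wnt7a had no peak of their own in either list.

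None of the listed keratinocyte and leukocyte genes was a nearest gene. This holds for the 24 basal keratinocyte, 28 suprabasal keratinocyte and 18 leukocyte genes in the table. Of all 21887 protein-coding genes only 634 were nearest to a member, so lists this short would hold few in any case. Peaks that met Eed cKO were alike, with 0, 1 and 0 peaks nearest to genes of these lists. The leukocyte list is short, and other genes of immune cells were nearest genes, among them Tbx21 and Icos, a T-cell costimulatory receptor gene with 3 members (Icos was chosen after its values were seen). Both lists lacked a peak at the basal keratinocyte genes Krt5, Krt14 and Trp63, and at Eed. This did not hold for all keratinocyte genes. The basal gene Krt15 and the suprabasal gene Krt1 had a peak in both lists, and suprabasal Krt10 in control alone. Itga6, Itgb4, Col17a1, Epcam, Ly6a, Ivl, Lor and Flg had none in either list. Krt5 was 6.17 kb from a member that had another gene as its nearest, and Krt14 was 740.9 kb from one. Peak positions do not show whether the cells express these genes. A few genes of other skin cells were nearest genes. Of 20 Merkel cell genes, Sox2, Isl1 and Ncam1 had 7 members, at a median of 127.2 kb. Of 14 melanocyte genes, Mitf and Pax3 had 3, at a median of 149.8 kb. Of 21 dermal fibroblast genes, Zeb2, Col1a1, Twist1, Twist2 and Thy1 had 6, at a median of 19.6 kb. The other genes of these lists, among them Atoh1, Krt8, Dct and Col1a2, had none. Sox2, Isl1, Pax3, Zeb2, Twist1 and Twist2 are also counted among the developmental regulators above. Of the cell cycle inhibitors, Cdkn1a (p21) had 1 member, a 1.46 kb peak 11.1 kb away on its 5′ side that overlapped Trp53cor1, a p53-induced lncRNA.

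Polycomb genes were nearest to 10 members (1.19%), against 6 (1.95%) of the 308 peaks that met Eed cKO. Rybp, the variant PRC1 subunit, had 6, at 3.96, 34.6, 45.5, 47.1, 125.1 and 237.8 kb, with widths of 0.923 to 5.85 kb. Rybp had no peak of its own in either list, and 4 of its 6 members lay in the 502.2 kb gap towards Prok2. That gap held 6 members in all, together with 8 control peaks that met Eed cKO and 8 Eed cKO peaks. Bcor, a variant PRC1 subunit, had members at 206.2 and 236.0 kb, the PRC1 subunit gene Phc2 had 1 at 4.12 kb, and Jarid2, a PRC2 cofactor, had 1 at 257.4 kb.

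The members were spread over many loci, with some clusters. Of the 634 nearest genes, 505 had 1 member, 87 had 2 and 42 had 3 or more. Of the 15063 gaps between protein-coding genes longer than 4000 bp, 590 (3.92%) held a member, and 58 held 3 or more and together 227 members (27.0%). Gaps with a member had a median length of 122.6 kb against 27.1 kb for all gaps. A longer gap has more room for any peak, and no comparison weighted by length was made. Counted per peak, the median gap was 167.4 kb for members, 128.5 kb for peaks that met Eed cKO and 149.5 kb for Eed cKO-only intergenic peaks. The distance to the next member on a chromosome had a median of 588.8 kb and a minimum of 101 bp, and 160 of 821 such distances were 50 kb or less. Members linked at up to 50 kb gave 78 pairs, 22 groups of 3, 6 of 4 and 5 of 5, with 271 members (32.2%, 29.2 to 35.5) in 111 groups and 570 alone.

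The gap with the most members was the 895.9 kb between Trps1, a GATA-type zinc finger repressor needed for hair, face and skeleton, and Eif3h, a translation initiation factor subunit (chr15:50890632-51786562). It held 14 members covering 57.1 kb. It was also filled with wider control peaks, 19 of which were 8000 bp or more and control-only. In all, 38 control peaks covered 454.1 kb in this locus (the first also reaches into the Trps1 span), and 4 Eed cKO peaks covered 26.1 kb. Only 5 control peaks met Eed cKO. The members were 1.34 to 5.71 kb wide and lay between wide peaks of up to 55.2 kb. Control peaks in this gap thus covered 50.7% of its length as a broken block, against 2.92% for Eed cKO peaks. Trps1 itself had a control peak and no Eed cKO peak. Eif3h, the nearest gene of 8 of these members, had neither.

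**Figure D3:**
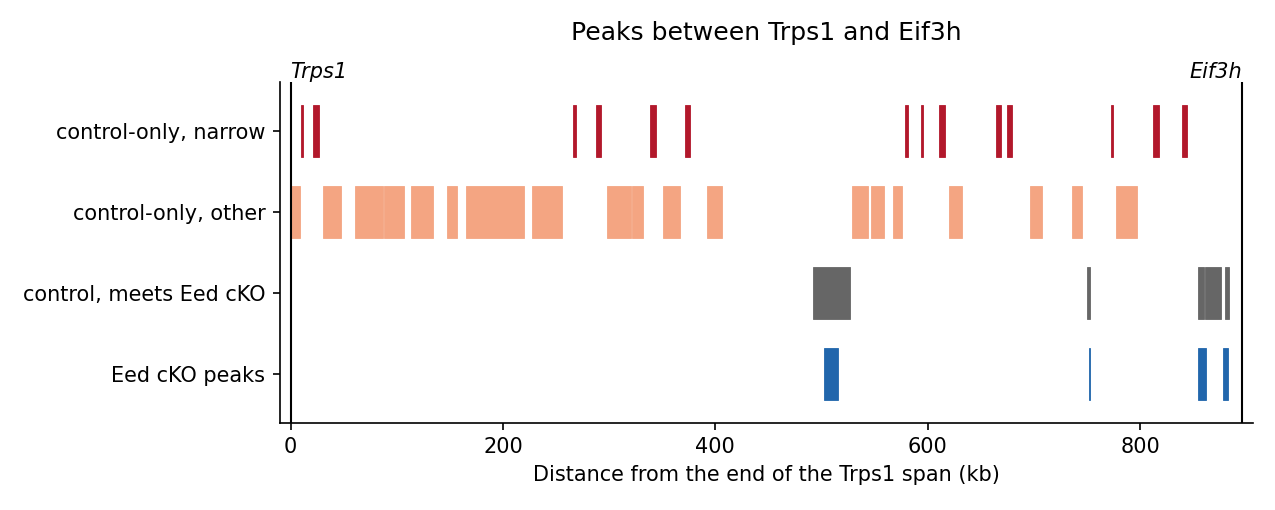
Peaks in the gap between Trps1 and Eif3h, by distance from the end of the Trps1 span in kb (x axis). Rows give the 14 narrow control-only peaks, 19 wider control-only peaks, 5 control peaks shared with Eed cKO, and 4 Eed cKO peaks; the first 502.0 kb hold no Eed cKO peak.

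The next gaps by number of members held fewer control peaks. The gaps from Foxo1 to Cog6, Rasgef1b to Vamp9, Csnk1g3 to Zfp608 and Tle4 to Psat1 held 7 members each, and control peaks covered 11.2%, 5.00%, 4.34% and 1.74% of their length. Foxo1 encodes a forkhead factor downstream of insulin signalling and Tle4 a Groucho corepressor. By nearest gene, Zfp608 had 7 members between 21.4 and 463.9 kb away on both sides of it, and Nectin1, a cell adhesion gene, had 6 between 8.26 and 188.0 kb. Both genes had peaks of their own in both lists. Msrb3, Otx2, Tle4 and Vamp9 had 5 members each. Those with 4 were Atp5g3, Bcl2l11, Foxo1, Gpx5, Has2, Klf14, Nr2f2, Rpl38 and Tmem174. Of all 42 genes with 3 or more members, 25 had a control peak of their own and 16 an Eed cKO peak.

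Among the groups linked at 50 kb, the most compact with 5 members spanned 54.1 kb between Hmga2, an architectural chromatin protein of the embryo, and Msrb3 (chr10:120690361-120744436). Its peaks were 3.56, 2.11, 5.74, 3.33 and 2.43 kb wide, 36.7 to 87.2 kb from Msrb3, and no other control peak lay among them. The group between Rasgef1b and Vamp9 spanned 99.0 kb (chr5:99568406-99667379), with all 5 peaks inside the lncRNA genes A930011G23Rik or 4930405H06Rik and the closest 1.70 kb from an Eed cKO peak. The group at Eif3h spanned 100.4 kb (chr15:51469377-51569819). Around Otx2, a forebrain and eye homeobox gene, 5 members spanned 109.0 kb (chr14:48645288-48754306), 1 on the 3′ side at 7.94 kb and 4 on the 5′ side at 29.0 to 84.3 kb. Of these, 4 overlapped the lncRNA genes Otx2os1 or Gm38660.

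Between Bcl2l11, which encodes the cell death factor Bim, and Spdye4c, 5 members spanned 131.3 kb (chr2:128265330-128396663), and 4 of them lay in Morrbid, a lncRNA known as a repressor of Bcl2l11 in myeloid cells. The group between Trim27 and Gpx5, the shortest of the 6 groups with 4 members, had peaks of 2.87, 2.39, 5.62 and 6.03 kb in 21.5 kb (chr13:21243163-21264638), separated by 509 to 2894 bp. Its peaks overlapped 4 tRNA genes, and its nearest Eed cKO peak was 2134 kb away. The groups described thus ranged from the flank of a gene with peaks in both lists (Otx2) to a locus far from any Eed cKO peak.

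**Figure D4:**
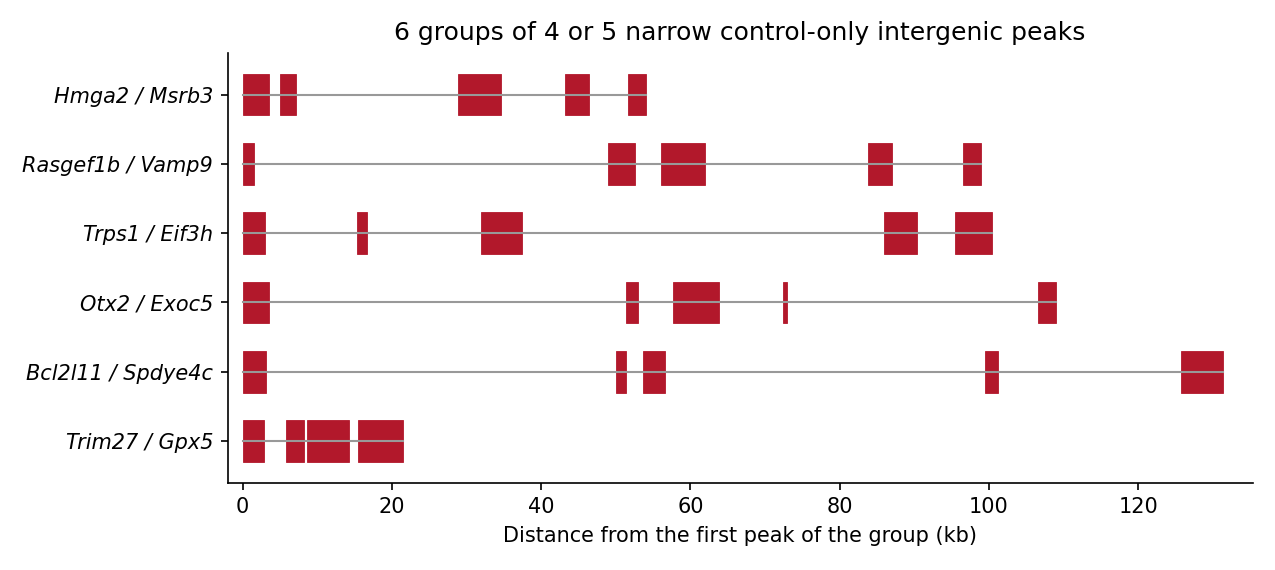
The 5 groups of 5 members and the shortest of the 6 groups of 4 members when members within 50 kb are linked, each drawn from its first peak (x axis, kb) and named by its flanking genes. The group labelled Otx2 / Exoc5 is an exception, since Otx2 lies inside it and its left flanking gene is Tmem260. Red boxes are peaks to scale; groups span 21.5 to 131.3 kb and hold 4 or 5 peaks.

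Members also lay near other H2AK119ub peaks. Another control peak was within 50 kb of 512 members (60.9%, 57.5 to 64.1), against 63.6% (58.1 to 68.8) of the narrow intergenic peaks that met Eed cKO. A wide control peak (8000 bp or more) was within 100 kb of 321 members (38.2%, 34.9 to 41.5) and within 10 kb of 108. For peaks that met Eed cKO the first share was 33.8% (28.7 to 39.2). For 212 of the 321 members (66.0%) that nearest wide peak met an Eed cKO peak, as 62.0% of all 928 wide control peaks did. The nearest Eed cKO peak was within 10 kb of 123 members (14.6%) and within 100 kb of 447 (53.2%, 49.8 to 56.5), and 100 members (11.9%) were more than 1 Mb from any.

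Non-coding genes lay under 268 members (31.9%, 28.8 to 35.1), 240 of them (28.5%) at lncRNA genes. Of the members' own sequence 23.7% was in lncRNA genes, against 11.3% of all intergenic sequence. Peaks that met Eed cKO overlapped lncRNA genes in a similar share (29.2%, 24.4 to 34.5). Beside those already named, Sfta3-ps next to Nkx2-1 and Plut next to Pdx1 each held members, a 4.14 kb peak in Sfta3-ps and peaks of 3.91 and 1.17 kb in Plut. A listed start site of a non-coding gene lay in 47 members (5.59%, 4.23 to 7.35). There were 10 tRNA genes under 8 members, 8 of these genes and 6 of the members being on chromosome 13.

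Chromosomes differed in density. Chromosome 11 had 90 members or 1.47 per Mb of intergenic sequence and chromosome 19 had 34 or 1.22 per Mb, against 0.559 per Mb overall. The X chromosome had 18 (0.148 per Mb), chromosome 16 had 9 (0.169 per Mb) and chromosome 14 had 15 (0.201 per Mb). All narrow intergenic control peaks, members included, were uneven in a like way. They numbered 128 in 61.3 Mb on chromosome 11 and 40 in 28.0 Mb on chromosome 19. On X there were 21 in 121.7 Mb, on chromosome 16 there were 16 in 53.1 Mb, and on chromosome 14 there were 23 in 74.8 Mb. The control-only share of narrow intergenic peaks is set by the selection. It ranged from 56.3% (9 of 16 peaks) on chromosome 16 to 89.8% (53 of 59) on chromosome 3, and was 70.3% on chromosome 11, 85.0% on chromosome 19 and 85.7% on X.

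**Figure D5:**
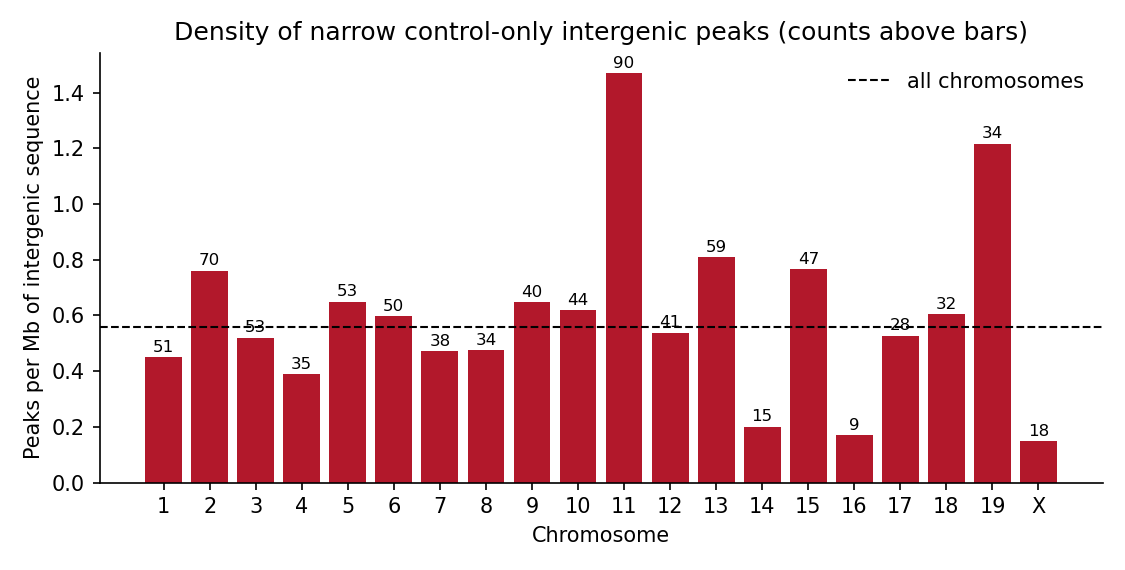
Members per Mb of intergenic sequence (y axis) on each chromosome (x axis), with counts above the bars and the overall density of 0.559 per Mb as a dashed line. Chromosomes 11 and 19 are highest, and X, 16 and 14 lowest.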

How the data were processed

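Reads were aligned and handled with Bowtie2 2.3.3.1 and SAMtools 1.9, per the submitters' processing notes. The authors deposited 1 peak list per genotype, holding chromosome, start and end in mm10 and no score, per the file headers. How peaks were called, at which threshold, with which inputs and from which of the 2 libraries is not given in the sources used here. Inputs and the Ring1a/b 2KO library were not analysed here.

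Peaks were set against 21887 protein-coding and 28056 other RefSeq genes (GRCm38.p6) with Python 3.11.15, numpy 2.4.6, pandas 2.3.3 and scipy 1.17.1. Distances run from peak edge to gene span. The selection was checked with bedtools 2.31.1, which counted the same 841 peaks, and on simulated intervals, where 400 planted members were recovered.

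The members and gene lists were chosen with earlier results of these data known. Named genes are those nearest to the 10 widest and 10 farthest members or to the 6 largest groups (ties by span, shorter first). Others are nearest to 3 or more members or to peaks at a limit. Further names are up to 6 per gene list, marker genes of skin and immune cells, and Krt5, Krt14, Trp63 and Eed. Up to 12 non-coding genes were planned, and the text names more. Not all genes that meet these rules are named. Alternatives covered the width limit, gene margin, overlap rule, merging, gene types, chromosomes, wider peaks alone and linking distance.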

Additional observations from a re-analysis of the deposited data

How the results depend on the processing

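Of 95 alternatives over 9 results, 75 left the value within its interval (or a count within 1.5 times) and 20 did not. Keeping only the wider peaks of each list, or excluding all RefSeq genes and not just protein-coding ones, each left 524 members. With the wider peaks, the control-only share was 76.5%, the median width 4068 bp, the share within 50 kb of another member 29.0% and the share within 100 kb of a wide peak 45.4%. With all RefSeq genes, the median gene distance was 12.2 kb (12232.5 bp), and the shares were 23.5% near another member, 30.5% with a marked nearest gene and 5.15% with a developmental regulator nearest. This setting both removes members and lets non-coding genes count as nearest, and which of these moved each value was not tested. A width limit of 6000 bp gave a median width of 2693 bp, 28.7% near another member and 46.3% near a wide peak; a limit of 10000 bp gave 33.9% near a wide peak. Requiring an Eed cKO peak to cover at least 50% of a control peak gave a control-only share of 75.9%. A gene margin of 5000 bp gave a median distance of 37.5 kb (37502 bp). Linking at 20 and 100 kb grouped 21.6% and 40.8% of members. Within 50 kb, 29.7% of members had a wide peak and 39.2% an Eed cKO peak. No paired analysis was possible because each genotype has 1 peak list, although the labels share replicate numbers, and for the same reason no library could be left out. Peak lists without depth limit every statement to the presence of a called peak.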

Other observations

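The 2 members farthest from any protein-coding gene lay side by side, 1311 and 1324 kb from Nmbr in the 2952 kb gap towards Cited2. They were 4.14 and 6.81 kb wide, 8.67 kb apart and 3265.5 and 3250.1 kb from the nearest Eed cKO peak. The third in distance, 663.1 kb from Mctp2, was 31.5 kb from an Eed cKO peak. The others of the 10 farthest members were near Gramd3, Psat1, Adgrl2, Zfp516, Irx1, Zfp608 and Csnk1g3, at 448.4 to 569.4 kb.

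A 2.68 kb member lay inside the spans of the T-cell receptor loci Tcra and Tcrd, which RefSeq does not class as protein-coding genes. The member was 180.3 kb from its nearest protein-coding gene, Dad1, and 110.2 kb from an Eed cKO peak. It was chosen for mention after its values were seen.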
